A study of Mus musculus with 32 samples.

Results

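The mitosis genes were 51 genes whose products carry a cell through mitosis: cyclins and kinases, centromere and kinetochore proteins, mitotic kinesins, condensin, spindle assembly factors and the machinery of cytokinesis. They were chosen by symbol and not by a cut on measured values, though with earlier results of these data known. All 51 were found among the 24421 genes of the count table. RNA was sequenced from 8 fractions of C57BL/6 female mouse bone marrow at 10 weeks (Young) and at 20 months (Aged), with 2 libraries in each of the 16 groups and 32 libraries in all. The fractions were hematopoietic stem cells (HSCs), multipotent progenitors MPP1, MPP2, MPP3 and MPP4, progenitors of granulocytes and macrophages (GMPs) and of megakaryocytes and erythrocytes (MEPs), and common lymphoid progenitors (CLPs). Every fraction except CLPs was sorted as IL-7- and Lin- and c-kit+. HSCs and MPPs were in addition Sca-1+. HSCs were CD34- and CD150+ while lacking CD48 and Flt3, and MPP1s differed from them in being CD34+. MPP2s were CD34+ with both CD150 and CD48, MPP3s had CD48 without CD150, and MPP4s had CD48 and Flt3. GMPs (FcgR+ CD34+) and MEPs (FcgR- CD34-) were Sca-1-, and CLPs were IL-7+ with low Sca-1 and low c-kit. Marrow was pooled by age before the sort and each fraction was sorted in duplicate, so the spread between duplicates, and each p-value, may cover technical variation more than variation between mice.

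Mitosis starts when cyclin B and Cdk1, released from inhibition by Cdc25 phosphatases, drive chromosome condensation and spindle assembly. Kinetochores attach chromosomes to microtubules under the watch of the Aurora B complex and the spindle checkpoint, and the anaphase-promoting complex with Cdc20 then removes securin and cyclin B so that separase can part the sister chromatids. Transcripts of most of these genes are made in the late cell cycle and are scarce in resting cells, and adult HSCs are known as a mostly resting population while the progenitors below them divide often.

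Promoters of late cell cycle genes are known for a short element, the cell cycle genes homology region (CHR), which the DREAM and MuvB complexes bind. RefSeq promoter windows (GRCm38.p6, 250 bases before to 50 after each start) were matched by symbol for 43 of the 51 genes. No entry was matched for Aurkb, Ccna2, Cdc25c, Incenp, Kif20a, Smc4, Spc24 and Tpx2. The letters TTTGAA, on either strand (TTCAAA on the other), were present in the windows of 33 of the 43 genes (76.7%), against 14.3% of the 10646 tested genes with a window. CCAAT, also on either strand (ATTGG), was present in 34 (79.1%) against 42.5%, and both were present in 30 (69.8%) against 5.78%. Neither motif contains the other. Of the 42 CHR matches, 31 began within 60 bases of a start. These matches describe letters in a window and not bound sites. The 30-base windows below are those that lay wholly before the start and whose CHR match began within 60 bases of it, with Mki67 added because several results turn on it. Capitals mark the CHR letters, and positions count the first base of the match from the start of transcription.
Cdc20, position -18, chr4:118437344-118437373, minus strand: agacagttgggtTTTGAAggagccaatgaa
Kif11, position -19, chr19:37376351-37376380, plus strand: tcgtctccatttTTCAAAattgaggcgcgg
Top2a, position -23, chr11:99024195-99024224, minus strand: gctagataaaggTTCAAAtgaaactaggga
Espl1, position -27, chr15:102296254-102296283, plus strand: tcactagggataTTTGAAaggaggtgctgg
Ube2c, position -29, chr2:164769888-164769917, plus strand: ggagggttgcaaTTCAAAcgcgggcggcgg
Ncapg, position -30, chr5:45669883-45669912, plus strand: ccgcgatagttgTTTGAAaactctggcgct
Ckap2l, position -30, chr2:129297225-129297254, minus strand: ttattggcgaatTTCAAAgtcgcggaagcc
Mki67, position -98, chr7:135716460-135716489, minus strand: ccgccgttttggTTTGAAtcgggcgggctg

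**Figure D1:**
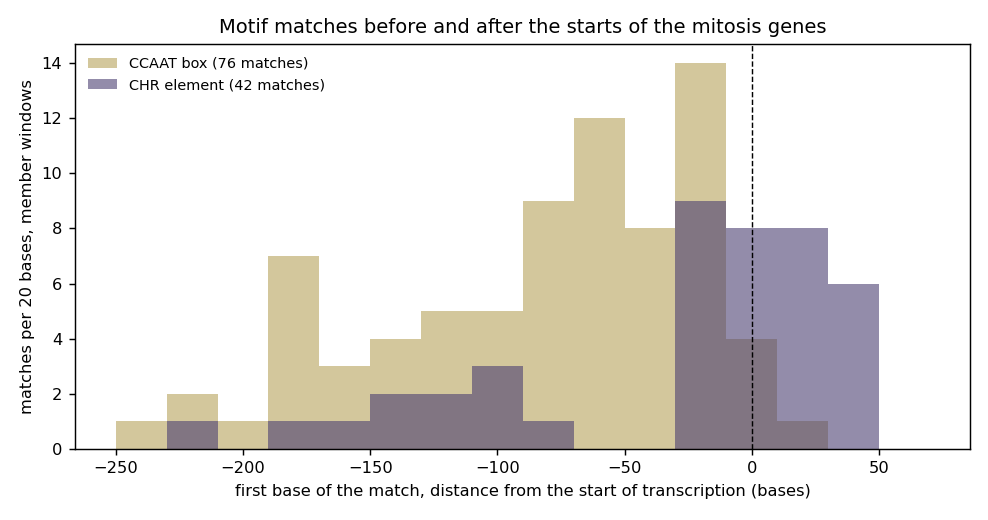
Positions of CHR and CCAAT matches in the RefSeq promoter windows of 43 mitosis genes. The x axis is the distance in bases of the first base of a match from the start of transcription (dashed line) and the y axis the number of matches per 20 bases. 31 of 42 CHR matches lie within 60 bases of the start.

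Total counts per library were 11237384 to 17723245. The rarest member in any library was Cenpf with 19 counts in Young HSC replicate 2, so all 51 genes passed the filter on low counts that left 14154 genes for testing. Levels are given in CPM, the count scaled to the TMM-corrected library size by edgeR, and levels of different genes are compared only per kilobase of exon. Exons of 16 of the 51 genes share bases with another annotated gene, 14 of them on the opposite strand (among them Ccna2, Cdc20, Cdc25b, Kif20a, Kif22, Ncapg, Nusap1, Plk1, Prc1 and Ube2c), and whether the counting used strand is not given in the sources used here, so their values may hold reads of a neighbour. Kif4 has an annotated pseudogene in the table that may share reads. Marker genes were set beside the sorts: neutrophil and monocyte precursor genes summed to 93678 to 95492 CPM in Young and 93806 to 94701 CPM in Aged GMPs, and erythroid genes to 12278 to 12491 CPM in Young and 11780.3 to 12521 CPM in Aged MEPs. Il7r, the receptor used to sort CLPs, was at 157 to 201 CPM in CLPs and at most 16.8 CPM in every other fraction. CLPs were sorted as low for Sca-1, and Ly6a, its gene, was at 34.4 and 35.9 CPM in Young and 221 and 207 CPM in Aged CLPs. One pair of duplicates stood apart for the mitosis genes. Aged CLP replicate 1 was below Aged CLP replicate 2 for 50 of the 51 genes, with a median log2 difference of -0.33, and the counts of calls in CLPs are also given without each of these libraries.

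Summed over the 51 genes, mitosis transcripts were lowest in HSCs and highest in MEPs and in Young CLPs. In Young cells the sum was 797 and 766 CPM in HSCs, 3767 and 3671 CPM in MPP1s, 6488 and 6498 CPM in MPP2s, 3711 and 3927 CPM in MPP3s, 5394 and 5184 CPM in MPP4s, 5040.2 and 5129.7 CPM in GMPs, 9683 and 9357 CPM in MEPs and 10361 and 10467 CPM in CLPs. In Aged cells it was 1201 and 1173 CPM in HSCs, 5121 and 5151 CPM in MPP1s, 8581 and 8762 CPM in MPP2s, 5887 and 6264 CPM in MPP3s, 7446 and 7783 CPM in MPP4s, 7759 and 7976 CPM in GMPs, 10506 and 10482 CPM in MEPs and 6938 and 8592 CPM in CLPs. Each Aged library was above each Young library of its fraction in 7 of the 8 fractions, and in CLPs both Aged libraries were below both Young ones. The order of the Young fractions was HSC, MPP1, MPP3, GMP, MPP4, MPP2, MEP and CLP, where the libraries of MPP1s and MPP3s overlapped. Among Aged fractions the order was HSC, MPP1, MPP3, MPP4, CLP, GMP, MPP2 and MEP. There the libraries of MPP4s and GMPs overlapped, and the spread of the 2 Aged CLP libraries covered the levels of both and reached that of MPP2s. The ratio of the Aged to the Young mean was from 1.10 in MEPs to 1.59 in MPP3s among the fractions where it was above 1, and 0.746 in CLPs. In bulk RNA of this kind, fewer dividing cells and less mitotic RNA per dividing cell cannot be told apart.

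**Figure D2:**
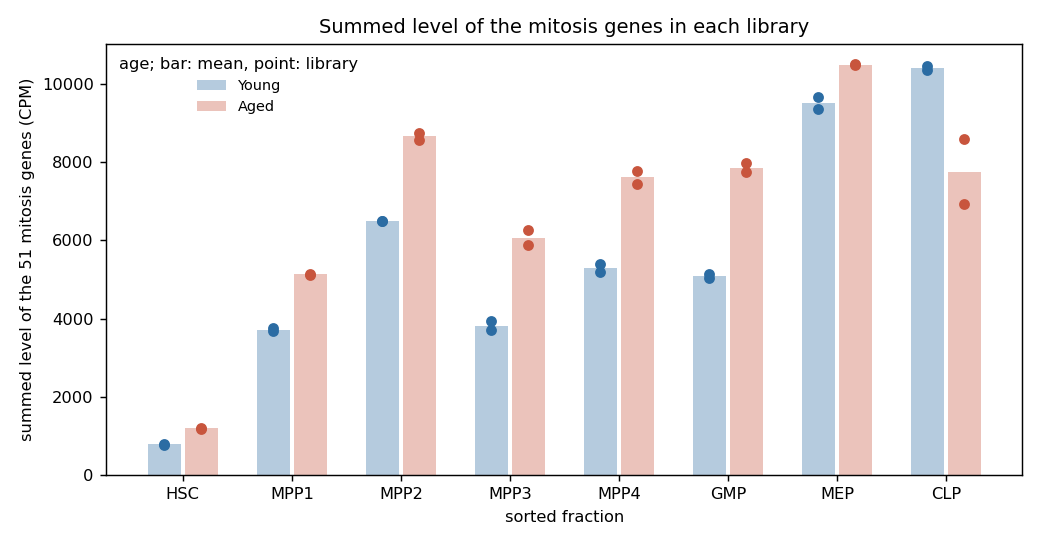
Summed level of the 51 mitosis genes (y axis, CPM) in each sorted fraction (x axis) of Young (blue) and Aged (red) mice. Points are libraries and bars the mean of 2. Aged libraries are above Young ones in HSCs, MPP1 to MPP4, GMPs and MEPs and below them in CLPs.

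The study asked how age changes the transcriptome of each fraction, and for each fraction the Aged libraries were tested against the Young ones. Calls among the mitosis genes were all higher in Aged HSCs, MPPs and GMPs, all lower in Aged CLPs and in both directions in MEPs. By edgeR's quasi-likelihood test with Benjamini-Hochberg adjustment over all 14154 genes and an adjusted p under 0.01, 29 of 51 were called higher in Aged HSCs and 0 lower, where 3.74% of all tested genes were called higher and 1.66% lower. The members' median log2 fold change was 0.72, against 0.02 over all tested genes. In MPP1s 27 were higher and 0 lower (all genes 4.71% and 2.09%), with a median of 0.49. In MPP2s 21 were higher and 0 lower (all genes 4.49% and 3.31%), with a median of 0.41. MPP3s had the most calls, 41 higher and 0 lower (all genes 8.14% and 5.79%), with a median of 0.68. In MPP4s 30 were higher and 0 lower (all genes 10.3% and 6.27%), with a median of 0.48.

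GMPs had 38 members higher and 0 lower (all genes 9.93% and 8.97%), with a median log2 fold change of 0.61. In MEPs 11 were called higher and 2 lower (all genes 9.08% and 11.7%), with a median of 0.13. With DESeq2 size factors the MEP split was 7 higher and 3 lower, and with no filter on low counts 6 and 4. In CLPs 0 were called higher and 19 lower (all genes 5.71% and 4.73%), and the log2 fold change was below 0 for all 51, with a median of -0.40. Where 0 members were called in a direction, DESeq2 also called 0, and at an unadjusted p under 0.05 edgeR counted 1 member lower in HSCs (Kif23), 0 lower in MPP1s, MPP2s, MPP3s, MPP4s and GMPs, and 0 higher in CLPs. The 8 fractions share no library, but marrow was pooled by age before the sort and 1 fit gave the spread for all. The 8 comparisons may therefore not be independent.

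Counts of calls moved with single libraries. Without Young HSC replicate 2 the count in HSCs was 17. In MPP1s it was 9 without Young MPP1 replicate 1, 9 without Young MPP1 replicate 2, 14 without Aged MPP1 replicate 1 and 12 without Aged MPP1 replicate 2. In MPP2s it was 8, 9, 10 and 12 in the same order of left-out libraries. In MEPs the split of 11 higher and 2 lower was 7 and 3 with DESeq2 size factors. With each MEP library left out, the higher calls were 5, 3, 5 and 3 in that order. When each fraction was fitted alone, on its 4 libraries, the test called 1 member in HSCs (Mki67), 41 in MPP1s, 44 in MPP2s and 0 in CLPs, where 42 members were lower at an unadjusted p under 0.05.

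**Figure D3:**
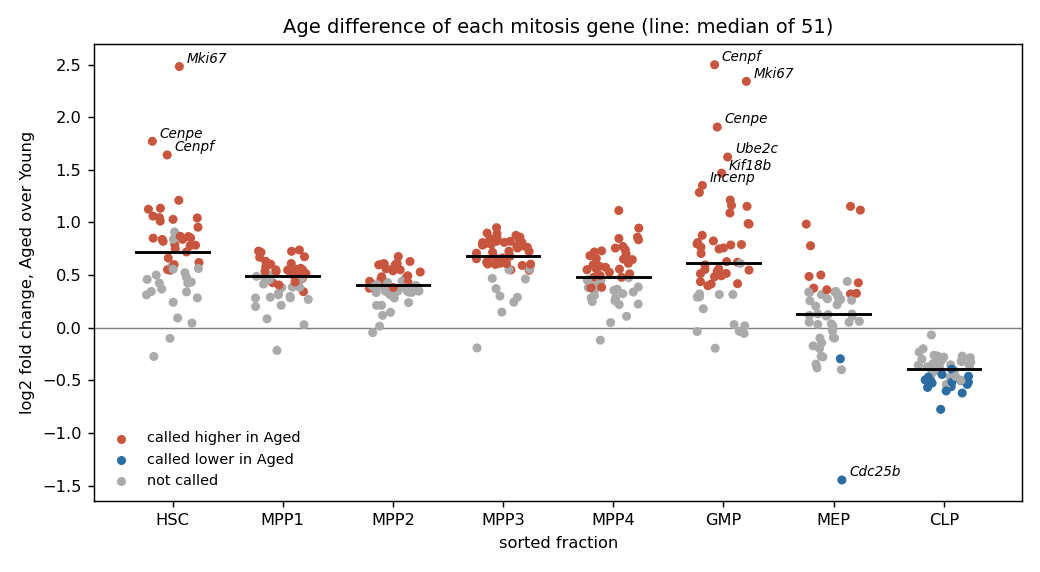
Log2 fold change, Aged over Young, of each of the 51 mitosis genes (y axis) in the 8 sorted fractions (x axis). Points are genes, red where called higher and blue where called lower at an adjusted p under 0.01, grey otherwise, and lines are medians, from 0.72 in HSCs to -0.40 in CLPs. Mki67, Cenpf and Cenpe stand above the rest in HSCs and GMPs, and Cdc25b below the rest in MEPs.

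Of the 51 genes, 47 were called higher in at least 1 Aged fraction, and 18 in each of MPP1 to MPP4. 11 were called higher in HSCs, all 4 MPPs and GMPs, namely Aurkb, Birc5, Ccnb1, Cdca3, Incenp, Kif20a, Kif22, Nusap1, Plk1, Spc24 and Ube2c, and 5 of them (Incenp, Kif20a, Kif22, Spc24 and Ube2c) in MEPs also. The genes never called higher were Kif4, Ndc80, Pttg1 and Smc2. Calls in any or in several fractions were not counted over all tested genes, so no such share is set beside these counts. In single fractions, from 3.74% (HSCs) to 10.3% (MPP4s) of all tested genes were called higher with age.

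**Figure D4:**
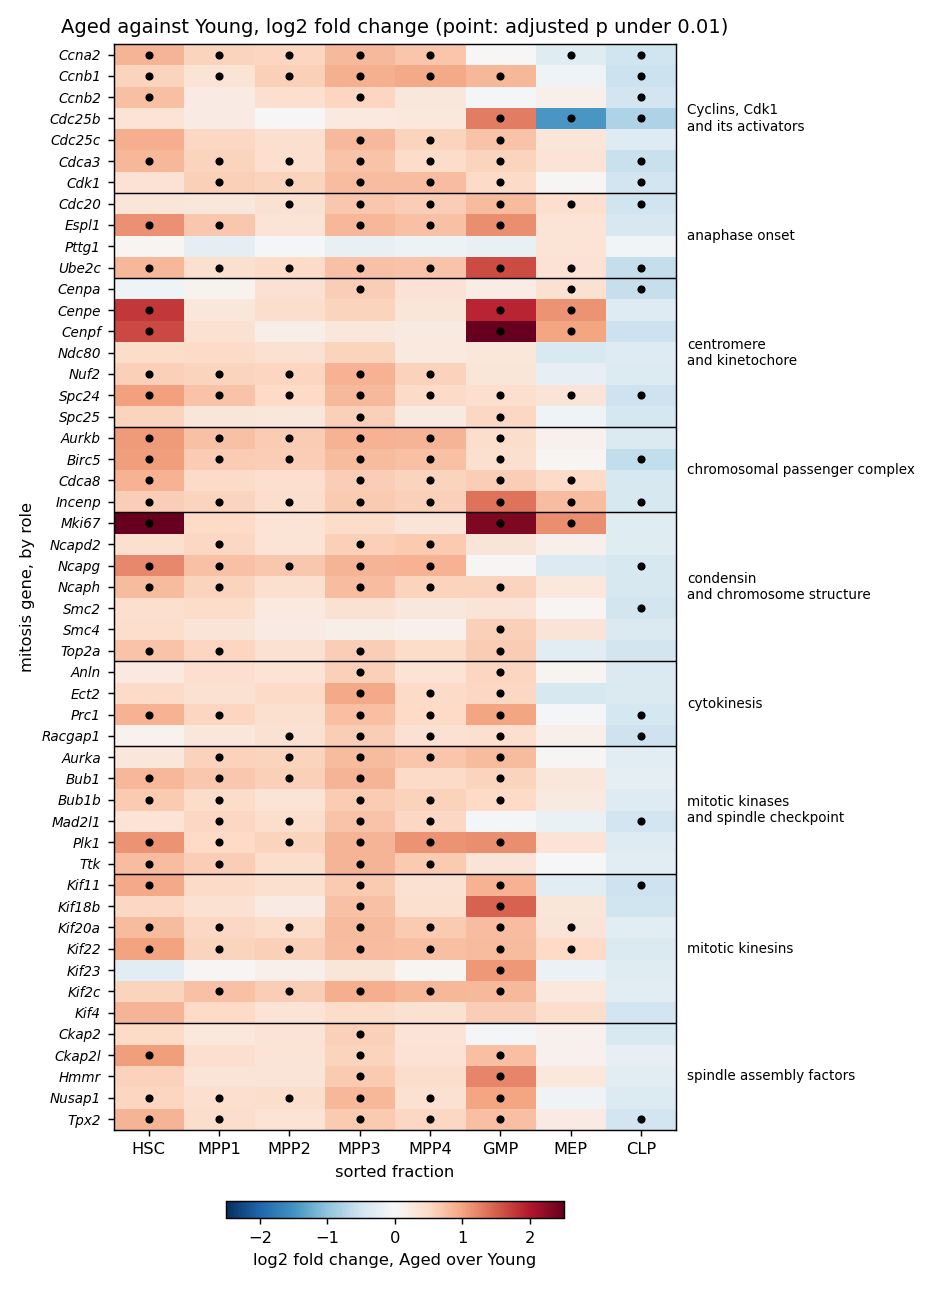
Log2 fold change, Aged over Young (colour), of the 51 mitosis genes (rows, grouped by role) in the 8 sorted fractions (columns). A black point marks an adjusted p under 0.01. Points are most frequent in MPP3s, where 41 rows have one, and all 51 colours in CLPs are in the lower direction.

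Cyclins, Cdk1 and the phosphatases that activate it set off mitosis. Of the 7 cyclin and Cdk1 genes (Ccna2, Ccnb1, Ccnb2, Cdk1, Cdc25b, Cdc25c and Cdca3), the number called higher with age was 4 in HSCs, 4 in MPP1s, 4 in MPP2s, 6 in MPP3s, 5 in MPP4s and 5 in GMPs, and the number called lower was 2 in MEPs and 6 in CLPs. Their log2 fold changes ranged from 0.34 (Cdc25b) to 0.91 (Cdc25c) in HSCs, from 0.24 (Cdc25b) to 0.89 (Ccnb1) in MPP3s, from -0.04 (Ccnb2) to 1.28 (Cdc25b) in GMPs and from -0.78 (Cdc25b) to -0.32 (Cdc25c) in CLPs. Ccnb2, a B-type cyclin (chromosome 9, 70407692 to 70421547, minus strand in GRCm38), had the highest level per kilobase of exon among them. Young libraries held 14.0 and 12.3 in HSCs, 92.5 and 91.8 in MPP1s, 141 and 149 in MPP2s, 84.0 and 84.8 in MPP3s, 124 and 123 in MPP4s, 193 and 187 in GMPs, 269.5 and 242 in MEPs, with 237 and 247 in CLPs, in CPM. Aged libraries held 20.95 and 23.0 in HSCs, 108 and 105 in MPP1s, 189 and 192 in MPP2s, 118 and 129 in MPP3s, 142 and 158 in MPP4s, 182 and 189 in GMPs, 282 and 276 in MEPs, with 143 and 204 in CLPs. The pairs were apart in HSCs, MPPs and CLPs, and crossed in GMPs. Ccnb2 rose by 0.75 (SE 0.13, adjusted p 4.54e-04) in HSCs and by 0.55 (SE 0.11, adjusted p 7.70e-04) in MPP3s on the log2 scale and was lower in CLPs at -0.48 (SE 0.10, adjusted p 0.00262). The call for Ccnb2 was lost in HSCs without Aged HSC replicate 2 (0.67) and without Young HSC replicate 2 (0.61), in MPP3s without Aged MPP3 replicate 2 (0.51), and in CLPs without Aged CLP replicate 1 (-0.24), without Young CLP replicate 1 (-0.52) and without Young CLP replicate 2 (-0.45). Ccnb1, the main B-type cyclin of mitotic entry (chromosome 13, 100778650 to 100786570, minus strand), had 91.4 and 91.8 CPM in Young and 175 and 165 in Aged MPP3s and 109 and 117 CPM in Young and 220.4 and 214 in Aged MPP4s. Its log2 fold changes there, 0.89 (SE 0.08, adjusted p 2.74e-07) and 0.95 (SE 0.08, adjusted p 5.48e-08), were among the 3 largest of each fraction and held without each of the 4 libraries.

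Next came the kinases that drive spindle assembly and the checkpoint that delays anaphase. Aurka and Plk1 act at spindle poles, and Ttk, Bub1, Bub1b and Mad2l1 signal unattached kinetochores. Of the 6 genes (Aurka, Plk1, Ttk, Bub1, Bub1b and Mad2l1), the number called higher with age was 4 in HSCs, 6 in MPP1s, 4 in MPP2s, 6 in MPP3s, 5 in MPP4s and 4 in GMPs, and the number called lower was 1 in CLPs. Log2 fold changes in this role ran from 0.28 (Aurka) to 1.13 (Plk1) in HSCs, from 0.64 (Bub1b) to 0.84 (Bub1) in MPP3s, from -0.03 (Mad2l1) to 1.16 (Plk1) in GMPs and from -0.48 (Mad2l1) to -0.23 (Bub1) in CLPs. Plk1, the polo-like kinase of mitotic entry and spindle assembly (chromosome 7, 122159439 to 122169873, plus strand), led them in level per kilobase. In Young cells its CPM were 6.88 and 7.76 in HSCs, 56.5 and 56.3 in MPP1s, 99.0 and 104 in MPP2s, 51.03 and 57.1 in MPP3s, 65.8 and 60.1 in MPP4s, 104 and 83.0 in GMPs, 318 and 285 in MEPs, with 209.7 and 220.4 in CLPs. In Aged cells they were 13.3 and 18.6 in HSCs, 79.8 and 79.9 in MPP1s, 154 and 145 in MPP2s, 95.2 and 98.8 in MPP3s, 135 and 137 in MPP4s, 204 and 214 in GMPs, 388 and 375 in MEPs, with 155 and 190.3 in CLPs. Aged exceeded Young pairs everywhere but in CLPs. Plk1 rose by 1.13 (SE 0.15, adjusted p 3.13e-05) in HSCs, 1.11 (SE 0.12, adjusted p 5.94e-07) in MPP4s and 1.16 (SE 0.12, adjusted p 2.99e-07) in GMPs, and its change in MPP4s was the largest of the 51 genes there. In MEPs (0.34, SE 0.11, adjusted p 0.0234) and CLPs (-0.32, SE 0.11, adjusted p 0.0536) it did not pass the threshold. The call for Plk1 was lost in MPP1s with any 1 of the 4 libraries left out (0.50 to 0.53), and in MPP2s without Aged MPP2 replicate 1 (0.53), without Young MPP2 replicate 1 (0.52) and without Young MPP2 replicate 2 (0.59).

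The chromosomal passenger complex corrects faulty attachments of chromosomes to the spindle. Of its 4 genes (the kinase Aurkb, the scaffold Incenp, survivin Birc5 and borealin Cdca8), the number called higher with age was 4 in HSCs, 3 in MPP1s, 3 in MPP2s, 4 in MPP3s, 4 in MPP4s, 4 in GMPs and 2 in MEPs, and the number called lower was 2 in CLPs. Their log2 fold changes ranged from 0.62 (Incenp) to 1.06 (Aurkb) in HSCs, from 0.61 (Cdca8) to 0.88 (Aurkb) in MPP3s, from 0.40 (Birc5) to 1.35 (Incenp) in GMPs and from -0.62 (Birc5) to -0.36 (Aurkb) in CLPs. Aurkb libraries in Young cells had 11.3 and 14.9 in HSCs, 85.7 and 75.4 in MPP1s, 153 and 159 in MPP2s, 92.5 and 102 in MPP3s, 123 and 121 in MPP4s, 226 and 207 in GMPs, 229.9 and 234 in MEPs, with 247 and 252 in CLPs, in CPM. In Aged cells they had 26.1 and 28.9 in HSCs, 136 and 133 in MPP1s, 240.3 and 242 in MPP2s, 171 and 187 in MPP3s, 216 and 224 in MPP4s, 291 and 296 in GMPs, 254 and 246 in MEPs, with 171 and 219 in CLPs. The Aged pair was above the Young pair outside CLPs, narrowly in MEPs. Beyond HSCs and MPPs, the log2 difference of Aurkb in GMPs was 0.44 (SE 0.10, adjusted p 0.00192) and in MEPs 0.11 (SE 0.10, adjusted p 0.441). The GMP call was lost without Aged GMP replicate 1 (0.45), without Aged GMP replicate 2 (0.42) and without Young GMP replicate 2 (0.36). Birc5 (chromosome 11, 117849251 to 117855743, plus strand) had 232 and 232 CPM in Young and 134 and 168 in Aged CLPs, a log2 difference of -0.62 (SE 0.09, adjusted p 3.75e-05) that was among the 3 largest there and held without each of the 4 libraries.

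Centromere and kinetochore genes build the site where microtubules attach. Cenpa marks the centromere, and Ndc80, Nuf2, Spc24 and Spc25 form the complex that grips microtubule ends. Of the 7 genes (Cenpa, Cenpe, Cenpf, Ndc80, Nuf2, Spc24 and Spc25), the number called higher with age was 4 in HSCs, 2 in MPP1s, 2 in MPP2s, 4 in MPP3s, 2 in MPP4s, 4 in GMPs and 4 in MEPs, and the number called lower was 2 in CLPs. Log2 fold changes in this role ran from -0.10 (Cenpa) to 1.77 (Cenpe) in HSCs, from 0.29 (Cenpf) to 0.86 (Nuf2) in MPP3s, from 0.18 (Cenpa) to 2.498 (Cenpf) in GMPs and from -0.57 (Cenpa) to -0.33 (Ndc80) in CLPs. Spc24, a subunit of the Ndc80 complex (chromosome 9, 21755442 to 21760303, minus strand), was highest per kilobase. Young CPM of Spc24 were 12.3 and 12.7 in HSCs, 50.5 and 52.2 in MPP1s, 86.5 and 86.7 in MPP2s, 57.1 and 55.8 in MPP3s, 69.6 and 72.1 in MPP4s, 83.9 and 77.4 in GMPs, 104 and 100.1 in MEPs, with 129 and 131 in CLPs. Aged CPM were 25.7 and 25.4 in HSCs, 84.0 and 84.7 in MPP1s, 119.8 and 124 in MPP2s, 94.6 and 103 in MPP3s, 95.8 and 102 in MPP4s, 100.4 and 115 in GMPs, 129 and 127 in MEPs, with 79.3 and 102 in CLPs. Both Aged libraries were above both Young ones in each fraction except CLPs. It rose by 1.03 (SE 0.10, adjusted p 6.83e-07) in HSCs, 0.72 (SE 0.09, adjusted p 1.53e-05) in MPP1s and 0.81 (SE 0.09, adjusted p 1.94e-06) in MPP3s. The call for Spc24 was lost in MPP2s without Young MPP2 replicate 1 (0.49), in GMPs without Aged GMP replicate 2 (0.31) and without Young GMP replicate 2 (0.34), in MEPs with any 1 of the 4 libraries left out (0.25 to 0.32), and in CLPs without Aged CLP replicate 1 (-0.34). Its partner Ndc80 was called in 0 of the 8 fractions, with log2 fold changes between -0.38 in MEPs and 0.55 in MPP3s.

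Mitotic kinesins move chromosomes and slide spindle microtubules. Kif11 pushes spindle poles apart, Kif18b and Kif2c shorten microtubules, Kif4 and Kif22 bind chromosomes, and Kif20a and Kif23 act in cytokinesis. Of the 7 genes (Kif11, Kif18b, Kif20a, Kif22, Kif23, Kif2c and Kif4), the number called higher with age was 3 in HSCs, 3 in MPP1s, 3 in MPP2s, 5 in MPP3s, 3 in MPP4s, 6 in GMPs and 2 in MEPs, and the number called lower was 1 in CLPs. Their log2 fold changes ranged from -0.27 (Kif23) to 1.01 (Kif22) in HSCs, from 0.30 (Kif23) to 0.90 (Kif2c) in MPP3s, from 0.61 (Kif4) to 1.47 (Kif18b) in GMPs and from -0.52 (Kif11) to -0.27 (Kif2c) in CLPs. Kif22, a motor that binds chromosome arms (chromosome 7, 127027729 to 127042471, minus strand), was highest per kilobase. Its Young CPM were 12.1 and 11.7 in HSCs, 70.4 and 66.8 in MPP1s, 116 and 119.8 in MPP2s, 67.7 and 70.0 in MPP3s, 88.5 and 81.0 in MPP4s, 86.3 and 99.6 in GMPs, 208 and 203 in MEPs, with 234 and 238 in CLPs. Its Aged CPM were 20.7 and 27.1 in HSCs, 96.4 and 106 in MPP1s, 175 and 183 in MPP2s, 113 and 122 in MPP3s, 135 and 151 in MPP4s, 156 and 164 in GMPs, 281 and 301 in MEPs, with 167 and 198 in CLPs. No Young library exceeded an Aged one outside CLPs. Kif22 rose by 1.01 (SE 0.12, adjusted p 6.56e-06) in HSCs, by 0.77 (SE 0.10, adjusted p 1.25e-05) in MPP3s, by 0.76 (SE 0.10, adjusted p 9.43e-06) in MPP4s and by 0.79 (SE 0.10, adjusted p 6.12e-06) in GMPs. The call for Kif22 was lost in MPP1s without Young MPP1 replicate 2 (0.53), and in MEPs without Aged MEP replicate 2 (0.41) and without Young MEP replicate 2 (0.44). Kif2c, which takes microtubules apart at kinetochores, had 36.7 and 36.6 CPM in Young and 66.4 and 70.2 in Aged MPP3s and rose by 0.90 (SE 0.12, adjusted p 1.36e-05). Kif23, the motor of the central spindle, was called in GMPs and in none of the other 7 fractions, with 49.7 and 55.1 CPM in Young and 117 and 106 in Aged GMPs and a log2 fold change of 1.09 (SE 0.09, adjusted p 4.94e-08), whereas in HSCs its value was -0.27 and in MPP1s 0.03.

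Spindle assembly factors stabilize microtubules around chromosomes. Tpx2 activates Aurora A, and Hmmr, Ckap2 and Ckap2l bind spindle microtubules. Of the 5 genes (Tpx2, Nusap1, Hmmr, Ckap2 and Ckap2l), the number called higher with age was 3 in HSCs, 2 in MPP1s, 1 in MPP2s, 5 in MPP3s, 2 in MPP4s and 4 in GMPs, and the number called lower was 1 in CLPs. Log2 fold changes in this role ran from 0.50 (Ckap2) to 1.05 (Ckap2l) in HSCs, from 0.55 (Ckap2l) to 0.82 (Nusap1) in MPP3s, from -0.05 (Ckap2) to 1.21 (Hmmr) in GMPs and from -0.47 (Tpx2) to -0.20 (Ckap2l) in CLPs. Nusap1, which bundles microtubules near chromosomes (chromosome 2, 119618298 to 119651244, plus strand), had in Young cells 15.5 and 15.4 in HSCs, 99.2 and 92.2 in MPP1s, 172 and 172 in MPP2s, 79.5 and 90.2 in MPP3s, 148 and 142 in MPP4s, 74.9 and 70.0 in GMPs, 172 and 151 in MEPs, with 256 and 262 in CLPs, in CPM. It had in Aged cells 20.9 and 24.2 in HSCs, 130.2 and 127 in MPP1s, 236 and 230.3 in MPP2s, 137 and 163 in MPP3s, 180.0 and 197 in MPP4s, 143 and 143 in GMPs, 152 and 150.4 in MEPs, with 178 and 230.5 in CLPs. The Aged pair was well above the Young pair in GMPs, and in MEPs it was at the low end of the Young pair. Nusap1 rose by 0.82 (SE 0.10, adjusted p 8.30e-06) in MPP3s and 0.98 (SE 0.10, adjusted p 6.76e-07) in GMPs. The call for Nusap1 was lost in HSCs without Aged HSC replicate 2 (0.42), without Young HSC replicate 1 (0.52) and without Young HSC replicate 2 (0.49), in MPP1s with any 1 of the 4 libraries left out (0.38 to 0.48), in MPP2s with any 1 of the 4 libraries left out (0.44 to 0.48), and in MPP4s with any 1 of the 4 libraries left out (0.32 to 0.45).

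Condensin compacts chromosomes, Top2a untangles their DNA and Mki67 coats their surface. Smc2 and Smc4 form the condensin core, with Ncapd2, Ncapg and Ncaph as its regulatory subunits. Of the 7 genes (Smc2, Smc4, Ncapd2, Ncapg, Ncaph, Top2a and Mki67), the number called higher with age was 4 in HSCs, 4 in MPP1s, 1 in MPP2s, 4 in MPP3s, 3 in MPP4s, 4 in GMPs and 1 in MEPs, and the number called lower was 2 in CLPs. Their log2 fold changes ranged from 0.42 (Ncapd2) to 2.48 (Mki67) in HSCs, from 0.15 (Smc4) to 0.85 (Ncapg) in MPP3s, from 0.03 (Ncapg) to 2.34 (Mki67) in GMPs and from -0.46 (Top2a) to -0.29 (Ncapd2) in CLPs. Ncapd2, a condensin subunit (chromosome 6, 125168007 to 125191701, minus strand), had the most transcript per kilobase. Its Young levels were 71.1 and 53.7 in HSCs, 226 and 216 in MPP1s, 375 and 389 in MPP2s, 230.3 and 239 in MPP3s, 309 and 289.7 in MPP4s, 241 and 268 in GMPs, 309.6 and 358 in MEPs, with 420.5 and 474 in CLPs, in CPM. Its Aged levels were 80.9 and 86.2 in HSCs, 318 and 318 in MPP1s, 485 and 488 in MPP2s, 358 and 356 in MPP3s, 484 and 454 in MPP4s, 321 and 312 in GMPs, 357 and 373 in MEPs, with 323 and 407 in CLPs. Ncapd2 rose by 0.60 (SE 0.11, adjusted p 2.72e-04) in MPP3s and 0.65 (SE 0.11, adjusted p 9.98e-05) in MPP4s. The call for Ncapd2 was lost in MPP1s with any 1 of the 4 libraries left out (0.50 to 0.56). Ncapg, another condensin subunit, was among the 3 largest changes in MPP1s (0.73, SE 0.11, adjusted p 8.25e-05), MPP2s (0.68, SE 0.10, adjusted p 1.46e-04) and MPP4s (0.86, SE 0.10, adjusted p 3.45e-06), with 48.3 and 48.4 CPM in Young and 88.3 and 87.2 in Aged MPP4s. For the core subunits, Smc2 was called higher in 0 fractions and Smc4 in GMPs, at 0.60 (SE 0.13, adjusted p 0.00140).

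Cytokinesis genes set the cleavage plane and the contractile ring. Prc1 crosslinks the microtubules of the spindle midzone and Anln holds the ring to the cortex. Of the 4 genes (Prc1, Anln, Ect2 and Racgap1), the number called higher with age was 1 in HSCs, 1 in MPP1s, 1 in MPP2s, 4 in MPP3s, 3 in MPP4s and 4 in GMPs, and the number called lower was 2 in CLPs. Log2 fold changes in this role ran from 0.09 (Racgap1) to 0.87 (Prc1) in HSCs, from 0.59 (Anln) to 0.95 (Ect2) in MPP3s, from 0.42 (Racgap1) to 0.99 (Prc1) in GMPs and from -0.53 (Racgap1) to -0.35 (Anln) in CLPs. Racgap1, the partner of Kif23 in the central spindle (chromosome 15, 99620496 to 99651656, minus strand), had Young CPM of 47.9 and 43.4 in HSCs, 149 and 148 in MPP1s, 229 and 215 in MPP2s, 120.4 and 128 in MPP3s, 172 and 172 in MPP4s, 203 and 201 in GMPs, 158 and 158 in MEPs, with 333 and 351 in CLPs. Aged CPM of Racgap1 were 44.5 and 52.7 in HSCs, 179 and 182 in MPP1s, 287 and 291 in MPP2s, 189 and 189.9 in MPP3s, 224 and 226 in MPP4s, 269.8 and 271 in GMPs, 173 and 173 in MEPs, with 212 and 264 in CLPs. In HSCs the pairs overlapped, and in MEPs they differed by less than in any MPP. Racgap1 rose by 0.61 (SE 0.08, adjusted p 1.49e-05) in MPP3s and 0.42 (SE 0.08, adjusted p 4.78e-04) in GMPs and was lower in CLPs at -0.53 (SE 0.08, adjusted p 8.29e-05). The call for Racgap1 was lost in MPP2s with any 1 of the 4 libraries left out (0.34 to 0.43), and in MPP4s without Aged MPP4 replicate 2 (0.38) and without Young MPP4 replicate 1 (0.38). Ect2, which activates RhoA at the cleavage plane, had 72.8 and 68.8 CPM in Young and 134 and 139 in Aged MPP3s, and its log2 fold change of 0.95 (SE 0.13, adjusted p 1.94e-05) was the largest of the 51 in MPP3s.

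Anaphase begins when cohesion between sister chromatids is cut. Of the 4 genes (Cdc20, Ube2c, Espl1 and Pttg1), the number called higher with age was 2 in HSCs, 2 in MPP1s, 2 in MPP2s, 3 in MPP3s, 3 in MPP4s, 3 in GMPs and 2 in MEPs, and the number called lower was 2 in CLPs. Their log2 fold changes ranged from 0.04 (Pttg1) to 1.14 (Espl1) in HSCs, from -0.19 (Pttg1) to 0.82 (Espl1) in MPP3s, from -0.19 (Pttg1) to 1.62 (Ube2c) in GMPs and from -0.60 (Ube2c) to -0.07 (Pttg1) in CLPs. Cdc20, the activator of the anaphase-promoting complex (chromosome 4, 118432901 to 118437352, minus strand), had the highest level per kilobase of all 51 genes. Its CPM in Young cells were 25.1 and 30.8 in HSCs, 107 and 118 in MPP1s, 177 and 173 in MPP2s, 104 and 104 in MPP3s, 134 and 142 in MPP4s, 167 and 156 in GMPs, 288 and 295 in MEPs, with 303 and 315 in CLPs. Its CPM in Aged cells were 31.5 and 38.0 in HSCs, 133 and 142 in MPP1s, 231 and 223 in MPP2s, 159.5 and 174 in MPP3s, 206 and 216 in MPP4s, 279 and 280.0 in GMPs, 389.9 and 394 in MEPs, with 198 and 241 in CLPs. The Aged pair was above the Young pair in every fraction except CLPs, and the gap in HSCs was small. Cdc20 rose by 0.68 (SE 0.09, adjusted p 2.23e-05) in MPP3s, 0.61 (SE 0.09, adjusted p 4.28e-05) in MPP4s and 0.79 (SE 0.09, adjusted p 2.36e-06) in GMPs. The call for Cdc20 was lost in MPP2s with any 1 of the 4 libraries left out (0.36 to 0.42), in MEPs without Aged MEP replicate 2 (0.38), without Young MEP replicate 1 (0.38) and without Young MEP replicate 2 (0.40), and in CLPs without Aged CLP replicate 1 (-0.36). Ube2c, the ubiquitin-conjugating enzyme of the same complex (chromosome 2, 164769898 to 164778822, plus strand), had 70.6 and 66.6 CPM in Young and 199 and 223 in Aged GMPs and 301 and 312 CPM in Young and 179 and 226 in Aged CLPs. It was higher in GMPs by 1.62 (SE 0.10, adjusted p 8.32e-10) and lower in CLPs with -0.60 (SE 0.10, adjusted p 1.81e-04) on the log2 scale.

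Mki67, Cenpf and Cenpe had the 3 largest log2 fold changes of all members in HSCs, in GMPs and in MEPs. Mki67, the gene of the proliferation antigen Ki-67 (chromosome 7, 135689784 to 135716361, minus strand), had 6.72 and 6.91 CPM in Young and 41.4 and 34.97 in Aged HSCs. In GMPs it had 33.6 and 33.2 CPM in Young and 164 and 174 in Aged libraries, and in MEPs 133 and 125 in Young and 319 and 255 in Aged libraries. Its log2 fold changes were 2.48 (SE 0.26, adjusted p 1.37e-06), 2.34 (SE 0.22, adjusted p 1.61e-07) and 1.15 (SE 0.21, adjusted p 1.85e-04) in this order, and each held without any of its 4 libraries. In MPP4s the Young pair (237 and 128 CPM) enclosed the Aged pair (233 and 224), and in none of MPP1 to MPP4 was Mki67 called, with values from 0.32 to 0.50.

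Cenpf, a large kinetochore protein (chromosome 1, 189640606 to 189688086, minus strand), had 7.77 and 9.40 CPM in Young and 46.3 and 50.8 in Aged GMPs, a log2 fold change of 2.498 (SE 0.25, adjusted p 2.89e-07). In HSCs Cenpf had 4.45 and 1.24 CPM in Young and 8.99 and 8.04 in Aged libraries (1.64, SE 0.32, adjusted p 0.00180), and in MEPs 37.6 and 37.6 in Young and 76.4 and 72.5 in Aged libraries (0.98, SE 0.22, adjusted p 0.00138). The call for Cenpf was lost in HSCs without Aged HSC replicate 1 (1.52) and without Young HSC replicate 2 (0.89), and in MEPs with any 1 of the 4 libraries left out (0.92 to 0.98). Cenpe, a kinetochore motor that carries chromosomes to the spindle equator (chromosome 3, 135212537 to 135273611, plus strand), had 2.104 and 1.43 CPM in Young and 6.18 and 5.76 in Aged HSCs, 20.7 and 19.2 CPM in Young and 70.7 and 79.1 in Aged GMPs and 44.6 and 50.2 CPM in Young and 109.6 and 96.1 in Aged MEPs. The log2 fold changes of Cenpe were 1.77 (SE 0.30, adjusted p 3.63e-04) in HSCs, 1.91 (SE 0.18, adjusted p 1.89e-07) in GMPs and 1.12 (SE 0.17, adjusted p 3.81e-05) in MEPs. The call for Cenpe was lost in HSCs without Young HSC replicate 2 (1.45). Fitted on the 4 HSC libraries alone, Cenpf had an adjusted p of 0.126. Neither gene was called in any of the MPPs.

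They are among the members with the longest exons, 15433 bases for Cenpf, 10061 for Mki67 and 8620 for Cenpe, where the members range from 1531 to 15433. Across the 51 genes, Pearson's r between log2 exon length and the log2 fold change with age was 0.22 in HSCs and 0.33 in GMPs, against -0.16 to 0.13 in the 4 MPPs. Over 14000 tested genes with a length it was -0.03 in HSCs and 0.06 in GMPs. These r are descriptions across genes, which share libraries and are not replicates. The other 5 of the 8 longest members had log2 fold changes in HSCs and in GMPs of 0.24 and 0.54 for Anln (9063 bases), 0.72 and 0.63 for Top2a (9013 bases), 1.14 and 1.15 for Espl1 (8749 bases), 0.34 and -0.03 for Mad2l1 (8390 bases) and 0.87 and 0.99 for Prc1 (8225 bases). With offsets for GC content and length in the fit, the GMP values were 2.18 for Mki67, 2.35 for Cenpf and 1.95 for Cenpe.

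**Figure D5:**
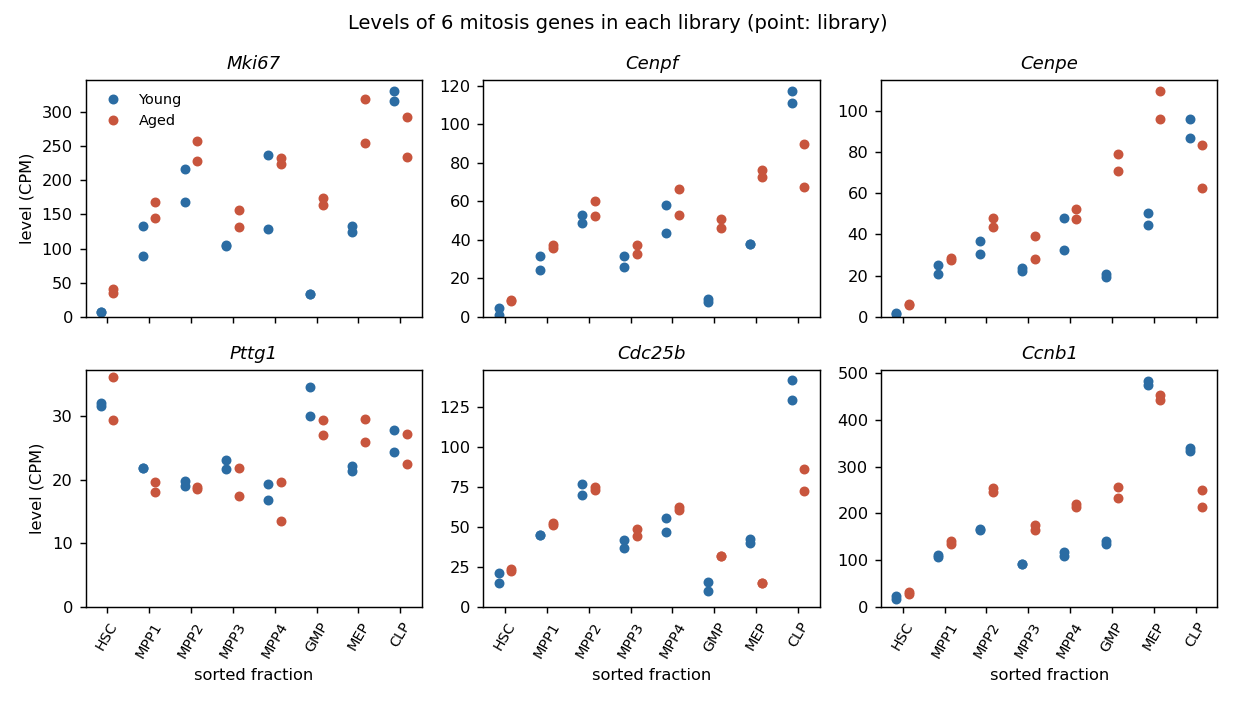
Levels (y axis, CPM) of 6 mitosis genes in each library, by sorted fraction (x axis), in Young (blue) and Aged (red) mice. Points are libraries. Mki67, Cenpf and Cenpe are low in both Young GMP libraries, Pttg1 stays between 13.5 and 36.0 CPM, and Cdc25b is lower in Aged than in Young MEPs and CLPs and higher in Aged than in Young GMPs, whereas Ccnb1 is higher in Aged MPPs and GMPs and lower in Aged CLPs.

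Cdc25b, a phosphatase that activates Cdk1 (chromosome 2, 131186949 to 131198497, plus strand), was higher in Aged GMPs and lower in Aged MEPs and CLPs. It had 10.4 and 15.8 CPM in Young and 31.9 and 31.97 in Aged GMPs, a log2 fold change of 1.28 (SE 0.16, adjusted p 3.68e-06). In MEPs it had 42.5 and 39.9 CPM in Young and 15.0 and 15.2 in Aged libraries, a log2 fold change of -1.45 (SE 0.15, adjusted p 3.49e-07), the lowest of any member in any fraction. In CLPs it had 142 and 129.8 CPM in Young and 72.5 and 86.1 in Aged libraries (-0.78, SE 0.14, adjusted p 3.49e-04). Both groups were apart in each of these fractions. The call for Cdc25b was lost in CLPs without Aged CLP replicate 1 (-0.66). Ccna2, cyclin A2, was the other member called lower in Aged MEPs, with 746 and 757 CPM in Young and 615 and 610.5 in Aged libraries (-0.30, SE 0.08, adjusted p 0.00843). Its call was lost with any 1 of the 4 libraries left out (-0.34 to -0.33). Genes of B lineage cells, by the sum of a list of 8, were at 183 to 194 CPM in Young and 0.430 to 1.22 CPM in Aged MEPs, with 6 of the 8 at 0 in both Aged libraries. Erythroid genes were at 559.9 to 628 CPM in Young and 37.9 to 80.3 CPM in Aged GMPs, where mast cell and basophil genes were at 645 to 656 and 270.2 to 351 CPM. The part of such cells in the results on MEPs and GMPs was not tested.

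In CLPs the count of members called lower rested in part on single libraries. Without Aged CLP replicate 1 it was 4 with a median log2 fold change of -0.25, and without Aged CLP replicate 2 it was 33 with a median of -0.57. Without Young CLP replicate 1 it was 12 and without Young CLP replicate 2 11. The direction was lower for the median in each of these fits. The same fits were counted by role after the data were seen. Without Aged CLP replicate 1 the lower calls were 1 each among cyclins, Cdk1 and activators, the passenger complex, cytokinesis and anaphase onset, and 0 each among kinases and the checkpoint, the kinetochore, kinesins, spindle assembly factors and condensin and chromosome structure. Without Aged CLP replicate 2 they were 7 among cyclins, Cdk1 and activators, 5 among condensin and chromosome structure, 4 each among the passenger complex and the kinetochore, 3 each among kinases and the checkpoint, kinesins and spindle assembly factors, and 2 each among cytokinesis and anaphase onset. Of the sort antigens, Ly6a was higher in Aged CLPs, as given above, and so, by less, were Cd34, Flt3, Il7r and Cd48. Kit was lower in both Aged libraries, and Slamf1 overlapped. Fcgr3, an Fc receptor gene, had 23.6 and 23.1 CPM in Young and 3.94 and 1.93 in Aged CLPs. Their part in the CLP results was not tested. Young CLPs also held genes of other cells at higher levels. A list of 5 mast cell and basophil genes summed to 1737 to 1785 CPM in Young and 8.26 to 12.0 CPM in Aged CLPs, where Prss34, the basophil protease, was at 0 in both Aged libraries. Erythroid genes summed to 1133 to 1191 and 216 to 387 CPM, neutrophil and monocyte precursor genes to 1693 to 1738 and 679.8 to 738, macrophage genes to 167 to 179 and 22.2 to 29.1, and B lineage genes to 2604 to 2675 and 1269.5 to 1269.7. Megakaryocyte genes were the other way round, at 37.8 to 39.6 CPM in Young and 126 to 196 CPM in Aged CLPs. The part of these cells in the lower level of the mitosis genes was not tested.

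In the fractions where the mitosis genes were higher with age, markers of other cells moved as well. Erythroid genes were at 1759 to 1984 CPM in Young and 1270.2 to 1419 in Aged MPP1s, 1936 to 2082 and 1115 to 1129 in MPP2s, 1808 to 1961 and 848 to 877 in MPP3s and 1097 to 1336 and 578 to 701 in MPP4s. Neutrophil and monocyte precursor genes, in CPM with Young before Aged, were at 225 to 246 and 369 to 526 in HSCs, 227 to 235 and 364 to 599 in MPP1s, 2017 to 2103 and 1691 to 1720.0 in MPP2s, 3666 to 3927 and 2111 to 2159 in MPP3s and 773 to 822 and 859 to 891 in MPP4s. Macrophage genes, given likewise, were at 41.0 to 48.2 and 23.2 to 29.5 in HSCs, 38.9 to 42.5 and 21.9 to 24.0 in MPP1s, 138 to 152 and 45.4 to 49.2 in MPP2s, 118 to 129 and 38.7 to 39.1 in MPP3s, 61.3 to 69.2 and 26.3 to 26.8 in MPP4s and 144 to 165 and 109.6 to 146 in GMPs. The macrophage sums were thus lower in Aged libraries of the HSCs and each MPP, while those of the precursor genes were higher in HSCs, MPP1s and MPP4s and lower in MPP2s and MPP3s. The higher sum in HSCs came from Prtn3, at 139 and 154 CPM in Young and 328 and 443 in Aged libraries. There Elane, Ctsg and Ms4a3 were lower in Aged libraries, Mpo was not higher and Ly6c2 overlapped. In MPP4s Prtn3 and Ctsg were higher, Mpo and Elane were lower, and Ms4a3 and Ly6c2 overlapped. MPP2s had lower Mpo, Elane and Ly6c2 in Aged libraries but higher Prtn3 and Ctsg, with Ms4a3 overlapping. MPP3s had lower Mpo, Elane, Ly6c2 and Ms4a3, while Prtn3 and Ctsg overlapped. In HSCs megakaryocyte genes were at 338 to 345 CPM in Young and 556 to 614 in Aged libraries. This higher sum came mostly from Vwf, at 225 and 218 CPM in Young and 400 and 437 in Aged libraries. Itga2b and Gp1bb were also higher there, while Pf4 and Ppbp were lower in both Aged libraries and Gp9 overlapped. The part of all these markers in the mitosis results was not tested.

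Whether the age difference in a fraction departed from that of the MPPs was tested directly, by the difference in the fraction minus the mean difference over MPP1 to MPP4. These 4 comparisons share the 16 MPP libraries. For CLPs 48 of the 51 members were called lower and 0 higher (all genes 12.3% and 10.3%), with a median of -0.93. The members not called were Cenpf (-0.80), Mki67 (-0.70) and Pttg1 (0.07). The lowest were Birc5 at -1.31 (SE 0.10, adjusted p 6.43e-09), Ccnb1 at -1.23 (SE 0.09, adjusted p 4.81e-09) and Ube2c at -1.18 (SE 0.11, adjusted p 8.21e-08). At an unadjusted p under 0.05 and by DESeq2, 0 were higher. Leaving out Aged CLP replicate 1 left 41 calls, and leaving out Aged CLP replicate 2 left 49.

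For MEPs 18 members were called lower than in the MPPs and 1 higher (all genes 14.7% and 10.2%), with a median of -0.30. Cdc25b (-1.63, SE 0.17, adjusted p 2.31e-07), Ncapg (-1.12, SE 0.11, adjusted p 1.61e-07) and Ect2 (-0.97, SE 0.14, adjusted p 2.03e-05) were the lowest. Cenpe was the gene called higher, at 0.72 (SE 0.19, adjusted p 0.00553), and lost that call in 13 of 20 fits with 1 library left out (from 0.57 to 0.75 over all 20). For GMPs 11 were higher and 3 lower (all genes 12.7% and 13.8%), with a median of 0.11. Those higher were led by Cenpf (2.24, SE 0.27, adjusted p 1.39e-06), Mki67 (1.93, SE 0.24, adjusted p 2.07e-06) and Cenpe (1.51, SE 0.20, adjusted p 5.13e-06). Those lower were Ncapg (-0.75, SE 0.12, adjusted p 3.13e-05), Ccna2 (-0.63, SE 0.09, adjusted p 1.79e-05) and Mad2l1 (-0.58, SE 0.10, adjusted p 1.26e-04), the checkpoint protein. For HSCs 2 members were called higher and 0 lower (all genes 1.91% and 1.1%), with a median of 0.19. They were Mki67 (2.07, SE 0.28, adjusted p 9.43e-05) and Cenpe (1.37, SE 0.31, adjusted p 0.00853), while Cenpf had 1.38 and was not called. At an unadjusted p under 0.05, 5 members were lower for HSCs, and DESeq2 called 0. Cenpe lost its call in 15 of 20 fits with 1 library left out (from 1.03 to 1.6002 over all 20).

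Comparisons between neighbouring Young fractions give the scale of the age differences. From HSCs to MPP1s 50 of 51 members were called higher and 0 lower (all genes 9.1% and 5.67%), with a median log2 fold change of 2.504. Mki67 (4.02, SE 0.26, adjusted p 9.43e-11), Cenpe (3.72, SE 0.26, adjusted p 2.84e-10) and Cenpf (3.37, SE 0.29, adjusted p 1.36e-08) rose the most, and Pttg1, at -0.54 (SE 0.15, adjusted p 0.0107), was the exception, which DESeq2 called lower. From MPP1s to MPP2s 46 were higher and 0 lower (all genes 4.8% and 2.02%), with a median of 0.82, led by Espl1, the separase (1.13, SE 0.14, adjusted p 1.07e-05), Bub1 (1.03, SE 0.15, adjusted p 4.14e-05) and Kif11 (1.02, SE 0.13, adjusted p 7.54e-06). MPP4s exceeded MPP3s for 23 members, with 0 lower (all genes 2.18% and 3.6%), and a median of 0.47. Kif23 (0.88, SE 0.09, adjusted p 6.12e-07), Cenpe (0.81, SE 0.18, adjusted p 0.00448) and Nusap1 (0.77, SE 0.10, adjusted p 1.82e-05) led those called, where the count was 2 without Young MPP3 replicate 1, 6 without Young MPP3 replicate 2, 7 without Young MPP4 replicate 1 and 11 without Young MPP4 replicate 2. The call for Cenpe was lost without Young MPP3 replicate 1 (0.76), without Young MPP3 replicate 2 (0.87) and without Young MPP4 replicate 1 (0.49).

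The restricted progenitors were compared with the MPP nearest in lineage, and these comparisons share MPP libraries with those above. GMPs exceeded MPP3s for 30 members and were below them for 3 (all genes 28% and 30%), with a median of 0.47. Ccnb2 (1.17, SE 0.11, adjusted p 3.52e-09), Aurkb (1.16, SE 0.10, adjusted p 1.68e-09) and Cdca3 (1.15, SE 0.11, adjusted p 3.52e-09) were the highest. Cenpf (-1.74, SE 0.25, adjusted p 2.39e-06), Mki67 (-1.64, SE 0.22, adjusted p 8.96e-07) and Cdc25b (-1.60, SE 0.15, adjusted p 8.10e-09) were the ones below. MEPs exceeded MPP2s for 27 and were below for 3 (all genes 27.3% and 36.7%), with a median of 0.47. Plk1 (1.57, SE 0.12, adjusted p 6.42e-11), Cenpa, the histone variant of centromeres (1.56, SE 0.11, adjusted p 1.90e-11), and Ccnb1 (1.53, SE 0.08, adjusted p 3.35e-13) were the highest. Cdc25b (-0.83, SE 0.14, adjusted p 1.62e-05), Racgap1 (-0.49, SE 0.08, adjusted p 1.26e-05) and Kif23 (-0.34, SE 0.09, adjusted p 0.00247) were lower, the last losing its call with any 1 of the 4 libraries left out (-0.35 to -0.33). CLPs exceeded MPP4s for 50 members and were below for 0 (all genes 21.3% and 20.5%), with a median of 0.97, led by Plk1 (1.77, SE 0.12, adjusted p 4.73e-11), Ube2c (1.68, SE 0.10, adjusted p 1.07e-11) and Ccnb1 (1.57, SE 0.08, adjusted p 1.08e-12). For the Young comparisons from MPP1s to MPP2s, MPP3s to MPP4s and MPP4s to CLPs, 0 members were lower at an unadjusted p under 0.05 or by DESeq2.

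Genes of the same pathways outside the 51 were counted in the same fits. Of all tested genes, 3.74% were called higher and 1.66% lower in HSCs, 4.71% and 2.09% in MPP1s, and 4.49% and 3.31% in MPP2s. The shares were 8.14% and 5.79% in MPP3s, 10.3% and 6.27% in MPP4s, and 9.93% and 8.97% in GMPs. In MEPs they were 9.08% and 11.7% and in CLPs 5.71% and 4.73%. Some counts below were near these shares, as for kinetochore genes in MPP2s and regulators in MEPs. Of 33 other kinetochore and centromere genes, the calls higher against lower with age were 10 against 0 in HSCs, 12 against 0 in MPP1s, 2 against 0 in MPP2s, 19 against 0 in MPP3s, 13 against 0 in MPP4s, 10 against 1 in GMPs, 2 against 1 in MEPs and 0 against 7 in CLPs. Of 24 other spindle, kinesin and cytokinesis genes they were 7 against 0 in HSCs, 5 against 0 in MPP1s, 2 against 0 in MPP2s, 15 against 0 in MPP3s, 7 against 0 in MPP4s, 15 against 0 in GMPs, 6 against 2 in MEPs and 0 against 3 in CLPs. Of 16 subunits and cofactors of the anaphase-promoting complex they were 0 against 0 in HSCs, 2 against 0 in MPP1s, 1 against 0 in MPP2s, 3 against 0 in MPP3s, 3 against 0 in MPP4s, 3 against 4 in GMPs, 3 against 2 in MEPs and 0 against 2 in CLPs, and of the 3 other condensin genes 0 against 0 in HSCs, 3 against 0 in MPP1s, 1 against 0 in MPP2s, 3 against 0 in MPP3s, 2 against 0 in MPP4s, 0 against 0 in GMPs, 0 against 1 in MEPs and 0 against 2 in CLPs. Among 20 regulators of mitotic entry and transcription they were 4 against 1 in HSCs, 3 against 0 in MPP1s, 3 against 0 in MPP2s, 9 against 0 in MPP3s, 9 against 1 in MPP4s, 5 against 1 in GMPs, 2 against 2 in MEPs and 0 against 6 in CLPs. The regulators named next were chosen after their values were seen. Foxm1, a transcription factor of late cell cycle genes, rose by 1.05 (SE 0.14, adjusted p 1.39e-05) in GMPs and by 0.68 (SE 0.14, adjusted p 0.00142) in MPP3s. Wee1, the kinase that holds Cdk1 inactive, was called lower in HSCs at -0.48 (SE 0.07, adjusted p 8.22e-05). It was also called lower in MEPs at -0.35 (SE 0.07, adjusted p 5.68e-04) and in GMPs at -0.25 (SE 0.07, adjusted p 0.00885). In CLPs and the MPPs Wee1 was not called, with values from -0.24 in CLPs to -0.15 in MPP3s. Pkmyt1, a regulator of the same list, went the other way where Wee1 was called. It was called higher in HSCs at 0.57 (SE 0.13, adjusted p 0.00625), in GMPs at 0.92 (SE 0.12, adjusted p 6.14e-06) and in MEPs at 1.02 (SE 0.12, adjusted p 1.74e-06). In CLPs Pkmyt1 was called lower, at -0.45 (SE 0.12, adjusted p 0.00944). Mybl2, the B-Myb factor, rose by 1.01 (SE 0.10, adjusted p 2.09e-06) in MPP1s.

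DNA replication genes, which act earlier in the cell cycle, were set beside the members. Of 28 such genes, calls higher against calls lower came to 11 against 0 in HSCs, 23 against 0 in MPP1s, 10 against 0 in MPP2s, 26 against 0 in MPP3s, 22 against 0 in MPP4s, 1 against 9 in GMPs, 0 against 6 in MEPs and 0 against 11 in CLPs. The shares over all tested genes are those given above for the other lists. In GMPs 9 of 28 were lower and 1 higher, with a median log2 fold change of -0.15, where the mitosis genes had a median of 0.61 and 0 lower. In MPP1s the replication genes had a median of 0.56 and in CLPs -0.31. The difference between both lists was not tested. In CLPs the lower calls outside the 51 also moved with single libraries. Without Aged CLP replicate 1 they were 2 among replication genes, 1 each among other kinetochore genes and regulators, and 0 each among other spindle, kinesin and cytokinesis genes, the anaphase-promoting complex and other condensin genes. Without Aged CLP replicate 2 they were 16 each among other kinetochore genes and replication genes, 6 among regulators, 4 among other spindle, kinesin and cytokinesis genes, 2 among the anaphase-promoting complex, and 1 among other condensin genes.

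Across the 16 group means of log2 CPM, each member was compared with the median of the other 50 by Pearson's r. The r ran from -0.46 to 1.00 with a median of 0.98, and 45 of 51 were over 0.9. These are descriptions, since the low level of HSCs weighs on each r. The 5 least like the rest were Pttg1 (-0.46), Cdc25b (0.45), Kif23 (0.85), Mki67 (0.88) and Cenpf (0.89). Pttg1, securin, which holds separase back until anaphase (chromosome 11, 43420250 to 43426251, minus strand), did not follow the other members. Its CPM in Young cells were 31.6 and 31.9 in HSCs, 21.8 and 21.9 in MPP1s, 19.7 and 18.9 in MPP2s, 23.1 and 21.7 in MPP3s, 16.8 and 19.3 in MPP4s, 34.5 and 29.99 in GMPs, 21.4 and 22.1 in MEPs, with 24.2 and 27.7 in CLPs. Its CPM in Aged cells were 29.4 and 36.0 in HSCs, 19.6 and 18.05 in MPP1s, 18.5 and 18.9 in MPP2s, 17.4 and 21.9 in MPP3s, 13.5 and 19.7 in MPP4s, 27.0 and 29.3 in GMPs, 29.4 and 25.8 in MEPs, with 27.2 and 22.4 in CLPs. HSCs, the fraction with the lowest summed level, were among the highest for Pttg1, and it was called in 0 of the 8 age comparisons. Outside the list, the 5 genes most like the members' median were Spag5 (0.99), Ska3 (0.99), Cenpn (0.99), Cenpi (0.99) and C330027C09Rik (0.99).

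The members with and without CHR letters in their windows were also set side by side. In MPP3s the median log2 fold change was 0.64 for the 33 genes with a CHR match and 0.79 for the 10 without and in GMPs 0.62 and 0.56. No test was made of these.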

How the data were processed

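RNA was sequenced from 32 libraries of 8 sorted bone marrow fractions, 2 per fraction and age. The authors aligned reads to mm10 with TopHat2 2.0.13 and Bowtie2 2.1.0, and deposited raw counts per gene from StringTie, per the submitters' processing notes and the study's methods. These counts are not normalized, hold no molecular identifiers, and carry no stated use of strand, and 27 gene names in the table had been turned into dates. The other deposited tables hold the authors' own comparisons between groups and were not used.

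Counts of 14154 genes that passed edgeR's filterByExpr were TMM-scaled and fitted in 1 model of 16 group means over all 32 libraries (R 4.3.3, edgeR 4.0.16, limma 3.58.1). Contrasts were tested two-sided with edgeR's quasi-likelihood F-test and Benjamini-Hochberg adjustment over all genes tested, and a call needed an adjusted p under 0.01. The 18 comparisons were Aged against Young in 8 fractions, 4 age differences set against the mean of MPP1 to MPP4, and 6 pairs of Young fractions. Standard errors (SE) are those of the log2 fold change. Total counts were 11237384 to 17723245 per library, and no member had under 10 counts in any library. The 2 libraries of each group differed by more than sampling noise (chi-square per degree of freedom of at least 4.59), so each was counted as its own library. That excess does not show that duplicates came from separate mice, since marrow was pooled by age before the sort. Replicate numbers did not pair the samples, with correlations of same-numbered deviations from -0.04 to 0.06.

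The members and gene lists were chosen with earlier results of these data known. All 51 members could be named. Values in every library are given for the member with the highest level per kilobase of exon in each of 9 roles. Named in each comparison are the 3 largest called changes in each direction and calls against the majority where there were 5 or fewer, and over the 16 group means the 5 members least like the others and the 5 outside genes most like them. Where other members are named, they were chosen after their values were seen. Alternatives were DESeq2 1.42.0, DESeq2 size factors, no filter on low counts, an adjusted p under 0.05, only the libraries compared, offsets for GC content and exon length, a replicate block, and each library left out in turn. Counting role groups and pathway lists in CLPs without each Aged CLP library was added after the data were seen. The fits were tested on simulated data. Promoter windows came from RefSeq.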

Additional observations from a re-analysis of the deposited data

Results flagged for a closer look

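Results are listed here because the age difference of a fraction departed from the mean age difference of MPP1 to MPP4 by edgeR's quasi-likelihood test of that difference, with a Benjamini-Hochberg adjusted p under 0.01. Age differences here are signed, Aged over Young on the log2 scale, so lower or higher does not mean smaller or larger in size. In CLPs 48 mitosis genes had a lower age difference than in the MPPs (all genes 12.3%). All 51 log2 fold changes with age were below 0 in CLPs. The lowest log2 values were those of Birc5 (-1.31), Ccnb1 (-1.23) and Ube2c (-1.18). In GMPs 11 had a higher and 3 a lower age difference (all genes 12.7% and 13.8%). The higher ones were led by Cenpf (2.24), Mki67 (1.93) and Cenpe (1.51), and the lower ones were Ncapg (-0.75), Ccna2 (-0.63) and Mad2l1 (-0.58). In HSCs 2 had a higher one (all genes 1.91%), Mki67 (2.075) and Cenpe (1.37). In MEPs 1 had a higher one (all genes 10.2%), Cenpe (0.72). There 18 had a lower one (all genes 14.7%), led by Cdc25b (-1.63), Ncapg (-1.12) and Ect2 (-0.97). The calls of Cenpe in HSCs and MEPs were lost in most fits with 1 library left out. The 4 comparisons share the MPP libraries.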

How the results depend on the processing

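The counts here are of members called in both directions together. In each of the 18 comparisons this sum stayed within 1.5 times its value with DESeq2 size factors, without the filter on low counts, with GC and length offsets, and with the replicate block, although in MEPs the split of 11 higher and 2 lower became 7 and 3 with DESeq2 size factors and 6 and 4 without the filter. With DESeq2 the age counts became 31 in CLPs and 32 in MPP2s, the age differences against the MPPs 22 in GMPs and 5 in HSCs, and Young MPP4s against MPP3s 38. At an adjusted p under 0.05 the age counts were 33 in CLPs and 35 in MPP2s, the age differences against the MPPs 25 in GMPs, 8 in HSCs and 31 in MEPs, and Young MPP4s against MPP3s 38. Fitted on only the libraries compared, the age counts were 0 in CLPs (42 at an unadjusted p under 0.05), 1 in HSCs, 8 in MEPs, 41 in MPP1s and 44 in MPP2s, the age differences against the MPPs 23 in GMPs, 4 in HSCs and 33 in MEPs, and Young MPP4s against MPP3s 9. Such fits estimate the spread from fewer libraries. With 1 library left out, the age counts ran from 4 to 33 in CLPs, 17 to 25 in HSCs, 4 to 7 in MEPs, 9 to 14 in MPP1s and 8 to 12 in MPP2s, the age difference of HSCs against the MPPs from 1 to 4, and Young MPP4s against MPP3s from 2 to 11. Otherwise the cause was not tested. With the replicate block the age counts were 28 in HSCs, 28 in MPP1s, 22 in MPP2s, 41 in MPP3s, 31 in MPP4s, 38 in GMPs, 14 in MEPs and 21 in CLPs. Of 134 named values, the block brought 1 past the threshold and DESeq2 8, while 2 lost their call with DESeq2 size factors, 6 with GC and length offsets, 5 with the block and these offsets, 6 without the filter, and 22 when only the libraries compared were fitted. No named value that was called, and no count, changed direction under any of these settings. Among named values not called, the sign varied for Nusap1 (-0.23 to 0.13) and Ncapd2 (-0.03 to 0.19) in MEPs. It also varied for Ccnb2 in GMPs (-0.08 to 0.09) and for Racgap1 in HSCs (-0.05 to 0.17). The lowest count of a member in any library was 19, for Cenpf.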
